A study of Bos taurus with 6 samples.

Results

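A set of 10 genes that mark the muscle cells of vessel walls and the pericytes of capillaries were followed in the back muscle of steers. They were ACTA2, MYH11, TAGLN, CNN1, MYLK, LMOD1, SMTN, ACTG2, RGS5 and NOTCH3, and every probe set that the array's annotation ties to exactly 1 of these symbols was taken. On the array 8 of the 10 genes were annotated, of 9155 genes with a probe set of their own, and they were read by 9 of 24016 probe sets that are not controls. ACTG2 and NOTCH3 had no probe set of this kind and are not described further. The samples were Musculus longissimus dorsi, a long muscle of the back, from 3 Japanese Black and 3 Holstein males, all described as steers. Japanese Black cattle are kept for heavily marbled beef, Holstein cattle mainly for milk. All 6 animals received energy-rich feed, and each was read on 1 array. An age is not given in the sources used here, and all animals share the feed, so breed was the comparison the labels allowed.

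Vascular smooth muscle cells wrap arteries, arterioles and veins and set their width by contracting. They do so with smooth muscle forms of actin and myosin, and a calcium-dependent kinase starts the contraction by phosphorylating the myosin light chain. Pericytes lie on capillaries, contact the endothelium directly and share part of this gene programme. In skeletal muscle both cell types are a small part of the tissue beside the fibres. In a sample of whole tissue, fewer cells of a type and less RNA per cell cannot be told apart.

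The 8 genes gave no breed difference that passed the test, and most of them varied widely between animals within a breed. The third Japanese Black animal and the second Holstein animal had the highest signals for ACTA2, MYH11, TAGLN, CNN1, MYLK and SMTN. These were 7 of the 9 probe sets, where that same pair of arrays was highest for 10.5% of the 18012 probe sets tested. This count was set up after the values were seen. LMOD1 did not share the pattern, and RGS5 shared it in part.

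Median signals ranged from 48.5 to 54.7 intensity units over the arrays and were highest in Japanese Black 3 (54.7) and Holstein 2 (52.7). The upper quartile was 205 in Japanese Black 3, 181 in Holstein 2 and 172 to 179.9 in the others, so the same pair of arrays was highest in these values too, and their part in the levels below was not tested beyond the rescaled values given there. Of 8 markers of skeletal muscle fibres 7 were measured, and all 7 were far above 0 in every animal. Apart from DES, which varied 1.52-fold over the animals, they read between 11917 and 15874 in every animal. The actin gene ACTC1 reached 22468 in Holstein 3, and whether the fibre markers were saturated was not tested. With 3 arrays per breed the precision of each value below is limited.

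ACTA2 encodes smooth muscle alpha-actin, the thin-filament protein of these cells. Its probe set read 2579, 2583 and 7858 intensity units in Japanese Black 1, 2 and 3. In Holstein 1, 2 and 3 it read 2745, 5127 and 3683. Japanese Black 1 and 2 were thus below every Holstein animal and Japanese Black 3 above all of them, so the breeds overlapped. The breed means were 4340 ± 3047 (SD, n = 3) and 3852 ± 1200 (SD, n = 3). Actin genes are close copies of each other, and whether probes for one also bind another was not tested.

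MYH11 encodes the smooth muscle myosin heavy chain, the motor of contraction in these cells. Its signal was 546, 412 and 2073 in Japanese Black 1, 2 and 3. The Holstein values were 441, 1820 and 531. Each breed held 1 animal far above the rest, and the highest signal was 5.03 times the lowest within Japanese Black and 4.13 times within Holstein. The breed means were 1011 ± 923 and 931 ± 772 (SD, n = 3 each).

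MYLK encodes the kinase that phosphorylates the myosin light chain of smooth muscle, and it was read by a pair of probe sets. The brighter one gave 1070, 992 and 2734 in Japanese Black and 1106, 2148 and 1229 in Holstein. The dimmer one gave 365, 385 and 998 in Japanese Black and 424, 925 and 538 in Holstein. Both placed the same animals on top, and their highest signals were 2.76 and 2.74 times their lowest. They differed in which Japanese Black animal was lowest.

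TAGLN encodes transgelin, an actin-binding protein abundant in smooth muscle. It read 286, 286 and 917 in Japanese Black against 336, 599 and 357 in Holstein. As for ACTA2, Japanese Black 3 was highest and Holstein 2 next. CNN1 encodes calponin, which binds actin and restrains the myosin motor. It read 217, 234 and 762 in Japanese Black against 380, 612 and 353 in Holstein. For TAGLN and CNN1 alike, Japanese Black 1 and 2 were below all 3 Holstein animals, and Japanese Black 3 was above them. The same held for ACTA2, SMTN and both MYLK probe sets.

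SMTN encodes smoothelin, a cytoskeletal protein of contractile smooth muscle. Its signals were 146, 126 and 227 in Japanese Black and 159, 211 and 196 in Holstein. The animals kept a similar order over a narrower range, since the highest was only 1.80 times the lowest. After quantile normalization Japanese Black 3 was no longer in the highest pair for this gene, and the count of probe sets with that pair on top was 6 of 9 (6.42% of all probe sets).

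LMOD1 encodes leiomodin, which starts actin filaments in smooth muscle. It read 257, 275 and 288 in Japanese Black against 309, 368 and 432 in Holstein. Every Japanese Black animal was below every Holstein animal. The third Japanese Black animal, highest for the other 7 genes, was below all 3 Holstein animals for LMOD1. The breed means were 273 ± 15.9 and 370 ± 61.5 (SD, n = 3 each).

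RGS5 encodes a regulator of G-protein signalling that is used as a marker of pericytes. It read 238, 108 and 515 in Japanese Black against 415, 400 and 225 in Holstein. Japanese Black 3 was again highest, 4.75 times Japanese Black 2. Holstein 1 stood beside Holstein 2, unlike in the contractile genes, and Holstein 3 was the lowest of its breed.

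**Figure D1:**
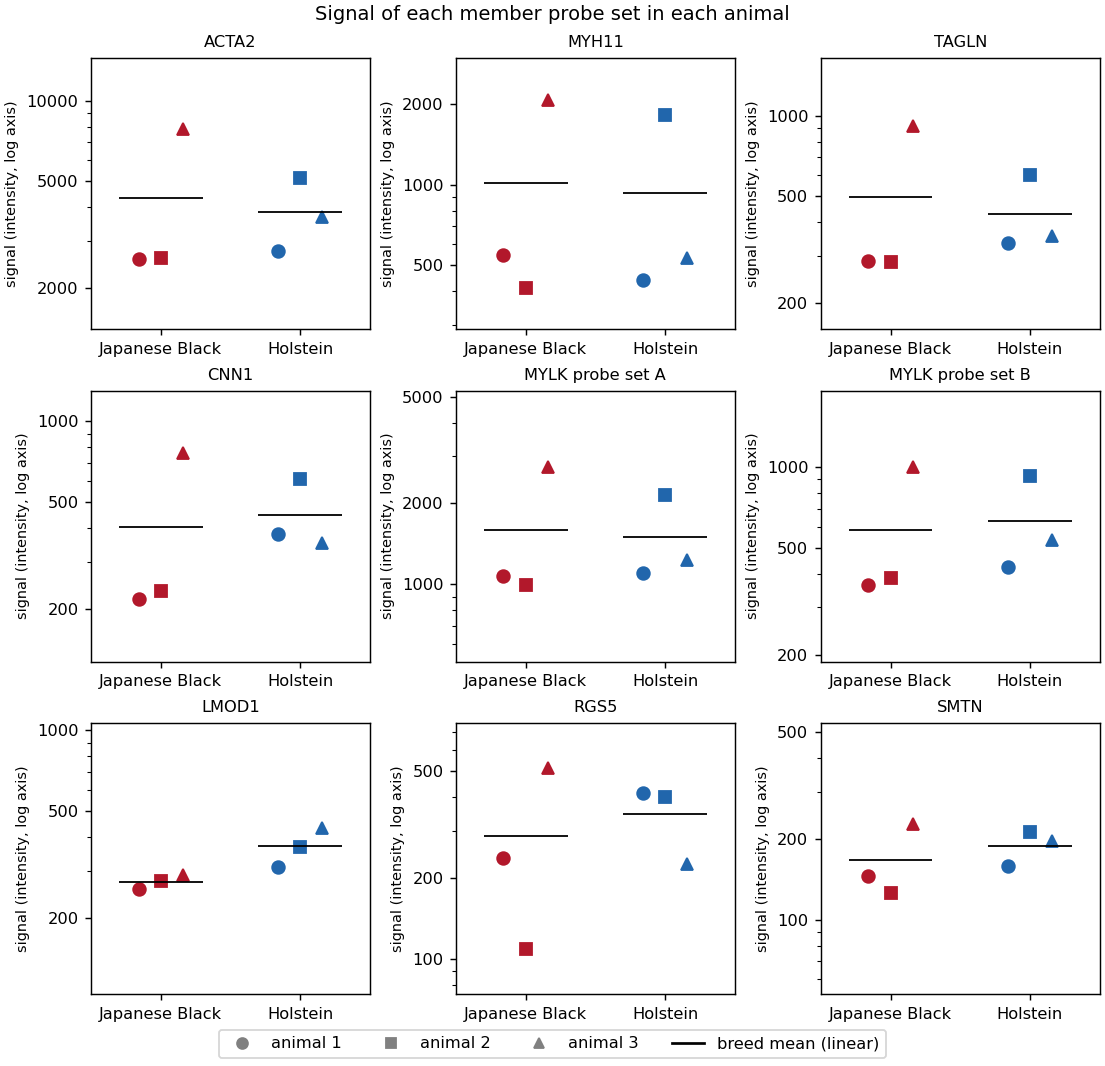
Signal of the 9 probe sets in each animal, with intensity on a log axis that spans the same ratio in every panel. Points are animals (circle 1, square 2, triangle 3), red for Japanese Black and blue for Holstein, and lines are breed means of 3 animals; Japanese Black 3 and Holstein 2 stand above the rest for ACTA2, MYH11, TAGLN, CNN1 and both MYLK probe sets (A is the brighter), and only LMOD1 separates the breeds.

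The breeds were compared with limma on log2(signal + 16), a scale on which changes of dim probe sets look smaller than they are, and p-values were adjusted over all 18012 probe sets by the Benjamini-Hochberg method. Of the 9 probe sets 0 passed an adjusted p of 0.05, where 0.0167% of all probe sets did, or 3. Over all probe sets that number depended on single animals and settings, from 0 (without any 1 of the Japanese Black animals, or with an offset of 1) to 10 with array weights and 15 without Holstein 2. At an unadjusted p under 0.05 there was 1 of 9, LMOD1, against 12.6% of all probe sets. Leaving out Japanese Black 1, Japanese Black 2, Holstein 2 or Holstein 3 each left 0 of 9. Without Japanese Black 3 the count was 2 of 9, but these were CNN1 and RGS5 and not LMOD1. When 1 animal was left out, the LMOD1 call thus held only without Holstein 1. The methods' t-test, run without pairs, also gave 0 of 9 after adjustment and 1 of 9 before it. The animals of the breeds did not overlap for 1 of 9 probe sets, again LMOD1, where 19.8% of all probe sets did not overlap and 8.84% did so with Japanese Black lower. A count of 1 in 9 is close to these background shares.

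LMOD1 had a log2 difference of -0.40 (Japanese Black minus Holstein, SE 0.17, 95% interval -0.80 to -0.01), or 1.32-fold, and its adjusted p was 0.392 in limma. It was lower in 3 of 3 Japanese Black animals than in any Holstein animal, and it does not pass the adjusted test. Across the alternatives its difference stayed below 0, from -0.52 to -0.29, with adjusted p between 0.36 and 0.724. The 3′ to 5′ signal ratio of the actin control probe sets, a sign of RNA quality, also separated the breeds, with its lowest Japanese Black value at 1.11 and its highest Holstein value at 1.07, and its part in the LMOD1 values was not tested. The same ratio for the GAPD control probe sets overlapped between the breeds, at 0.858 to 0.928 in Japanese Black and 0.796 to 0.884 in Holstein.

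For the other genes every 95% interval included 0. ACTA2 had a log2 difference of 0.01 (95% interval -0.93 to 0.94), TAGLN one of 0.03 (-0.94 to 0.99) and MYH11 one of 0.04 (-1.43 to 1.51). The brighter MYLK probe set differed by -0.00193 (-0.88 to 0.88) and the dimmer by -0.19 (-1.10 to 0.72). SMTN differed by -0.20 (-0.72 to 0.32), CNN1 by -0.34 (-1.32 to 0.65) and RGS5 by -0.46 (-1.51 to 0.60). The adjusted p of these 8 probe sets lay between 0.689 and 0.999 in limma. These intervals are wide on both sides of 0, so the 6 arrays do not show that the breeds are alike in these genes. Over 1 probe set per gene the median log2 difference was -0.10, against 0.01 over all probe sets tested. By sign alone 6 of the 9 probe sets were lower in Japanese Black, where 49% of all probe sets were.

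Leaving out single animals turned several of these directions. Without Japanese Black 3 all 9 probe sets were lower in Japanese Black, with a median over the genes of -0.52, where 53.9% of all probe sets were lower. The count was also 9 without Holstein 1 or Holstein 3, but 4 without Japanese Black 1 or Holstein 2 and 3 without Japanese Black 2. Between 45.7% and 49.7% of all probe sets were lower in these fits. Without Japanese Black 3 ACTA2 was at -0.53, MYH11 at -0.65, CNN1 at -0.90 and RGS5 at -0.98, with adjusted p between 0.397 and 0.656 over the 9 probe sets. Without Holstein 2 the median was 0.07 and MYH11 was at 0.67. The median was also above 0 without Japanese Black 1 (0.09) or Japanese Black 2 (0.16), and it was -0.31 without Holstein 1 and -0.19 without Holstein 3. In each of the 6 fits without 1 animal 0 of 9 probe sets passed the adjusted test.

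**Figure D2:**
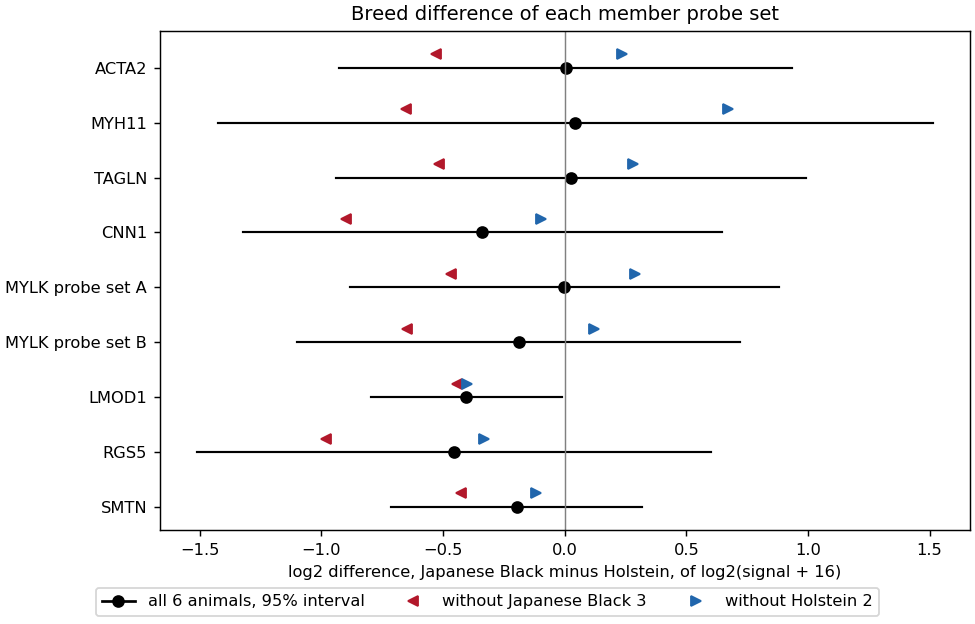
Log2 difference of each probe set, Japanese Black minus Holstein, with limma's 95% interval (black, 3 animals per breed) and the value without Japanese Black 3 (red) or without Holstein 2 (blue). All intervals but that of LMOD1 include 0, and leaving out either animal moves MYH11 from 0.04 to -0.65 or 0.67 while LMOD1 stays near -0.40.

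The spread between animals of a breed was wide for most of these genes. The within-breed SD on the log2 scale was 1.16 for MYH11, which is larger than for 99.6% of all probe sets tested. It was 0.81 for RGS5, 0.75 for CNN1, 0.73 for TAGLN and for ACTA2, and 0.68 and 0.69 for the MYLK probe sets, each larger than for at least 97.6% of all probe sets. SMTN, at 0.32, exceeded 75.8% of them, and LMOD1, at 0.17, exceeded 29.7%. The median over all probe sets was 0.23. LMOD1 therefore had a spread below that median, and the other 7 genes lay above it. After quantile normalization the SDs of MYH11, RGS5, CNN1, TAGLN, ACTA2 and MYLK were still larger than for at least 97.4% of probe sets, and after median centring for at least 97.2%.

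**Figure D3:**
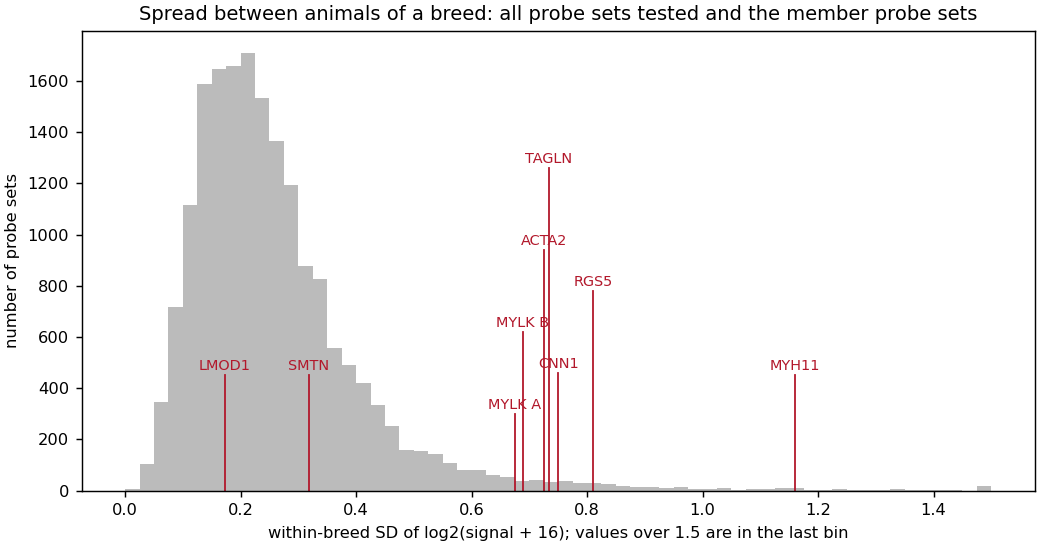
Number of probe sets (vertical axis) by within-breed SD of log2(signal + 16) for the 18012 probe sets tested (grey), with the 9 probe sets of the smooth muscle and pericyte genes as red lines whose heights carry no value. MYLK, ACTA2, TAGLN, CNN1, RGS5 and MYH11 lie between 0.68 and 1.16 in the right tail, and LMOD1 and SMTN lie within the bulk.

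The mean level of the 8 genes in an animal sums up this pattern. It was 0.82 above the average of the 6 animals in Japanese Black 3 and 0.54 above it in Holstein 2. It was 0.44 and 0.63 below the average in Japanese Black 1 and 2, and 0.19 and 0.10 below it in Holstein 1 and 3. After quantile normalization the levels of Japanese Black 3 and Holstein 2 were 0.67 and 0.56 above the average, still the highest pair.

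A wider set of 90 genes tied to smooth muscle contraction, pericyte identity or the control of contractile genes held 56 measured genes. The set is mixed, since ACTA1 and DES are also fibre markers and DLL4 is an endothelial ligand. Of the 56 genes 54 were bright enough to be tested. None of them is among the 8 genes, and 0 of 54 passed the adjusted test in limma, with 1 at an unadjusted p under 0.05 (12.6% of all probe sets) and 0 after adjustment by the methods' t-test. By sign 42 of 54 were lower in Japanese Black and 12 higher, where 49% of all probe sets were lower, and the median log2 difference was -0.14 against 0.01 over all probe sets. Japanese Black 3 and Holstein 2 were the highest pair for 11 of the 54, where they were for 10.5% of all probe sets. The same backgrounds hold for the lists that follow: 49% by sign, 12.6% at an unadjusted p under 0.05 and 10.5% for that pair of arrays. Sign counts of this set and of those lists were not repeated with 1 animal left out. Genes that rise and fall together over the animals are not separate observations, so these counts do not show a breed shift.

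Among genes of smooth muscle contraction 14 of 20 were lower in Japanese Black and 6 higher by sign, with a median of -0.08. The smallest p belonged to CSRP1, a LIM-domain protein (-0.34, adjusted p 0.433 in limma), PPP1CB, a catalytic subunit of the phosphatase that opposes MYLK (0.38, 0.435), DES, the intermediate filament protein desmin (-0.27, 0.497), and ZYX, a focal adhesion protein (-0.28, 0.498). Desmin is also abundant in skeletal fibres. TPM2 of this list read between 11715 and 12956, near the signals of the fibre markers. The part of fibres in the signals of this list was not tested. For 7 of the 20 genes Japanese Black 3 and Holstein 2 were the highest pair, and these were MYL6, CALD1, TPM1, FLNA, KCNMB1, PDLIM3 and ACTN1.

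Among genes of pericyte and mural identity 15 of 17 tested were lower in Japanese Black and 2 higher by sign, with a median of -0.20. EDNRA, an endothelin receptor of smooth muscle, had the smallest p, with signals of 26.6, 21.1 and 24.96 in Japanese Black and 54.98, 33.3 and 34.9 in Holstein. Its log2 difference was -0.49 with an adjusted p of 0.361 in limma, so it did not pass, and the low signals leave its size to the offset. VTN, encoding vitronectin, had -0.39 (adjusted p 0.427), DLL4, an endothelial Notch ligand, -0.42 (0.431), and KCNJ8, a potassium channel subunit of pericytes, -0.35 (0.489). VTN was dimmer than EDNRA, at 9.35, 12.5 and 16.1 in Japanese Black and 30.7, 19.9 and 15.1 in Holstein. Its breeds overlapped, and the size of its difference is left to the offset too. Japanese Black 3 and Holstein 2 were the highest pair for 3 of the 17, KCNJ8, EPAS1 and MCAM. MCAM, an adhesion molecule of vessel walls chosen after its values were seen, read 233, 204 and 856 in Japanese Black and 394, 591 and 242 in Holstein. PDGFRB, the receptor that draws pericytes to vessels, read between 127 and 176 in all 6 animals and did not have this pattern.

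Among 17 regulators and actins tied to serum response factor, the transcription factor behind many contractile genes, 13 were lower in Japanese Black and 4 higher by sign, with a median of -0.18. The smallest p belonged to MEF2A (0.43, adjusted p 0.419), SMAD2 (0.31, 0.441), TEAD4 (-0.40, 0.472) and FHL2 (-0.41, 0.49), all from limma. SRF, the factor's own gene, read 52.7, 62.2 and 41.6 in Japanese Black and 38.7, 45.7 and 38.2 in Holstein. Japanese Black 3 was thus the lowest of its breed for SRF, and Holstein 2 the highest of its breed. These animals were the highest pair for 1 of the 17, ACTB.

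Markers of other cells were set beside these levels. The adipocyte list, with 4 of 5 genes measured and none listed at 0, had Japanese Black 3 and Holstein 2 on top for all 4. FABP4, the fatty acid binding protein of fat cells, read 1615, 1726 and 7635 in Japanese Black and 3899, 6646 and 1021 in Holstein. The summed signal of the list ranged from 2332 to 11290 in Japanese Black and from 1376 to 9017 in Holstein. Holstein 3 had the lowest adipocyte level, 1.54 below the average of the 6 animals, while its level of the 8 genes was 0.10 below. The part of fat tissue in the smooth muscle values was not tested.

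Endothelial genes, with 8 of 8 measured, had Japanese Black 3 and Holstein 2 on top for 1 gene, PECAM1, a junction protein of these cells. Their mean level was highest in Holstein 1 (0.24 above the average) and Holstein 3 (0.21), 0.05 in Japanese Black 3 and 0.04 in Holstein 2, and lowest in Japanese Black 2 (-0.44). The summed signal ranged from 1584 to 2504 in Japanese Black and from 2429 to 2970 in Holstein. By sign 7 of the 8 were lower in Japanese Black and 1 higher, with a median of -0.32. In limma 0 of 8 passed the adjusted test. At an unadjusted p under 0.05 there were 2 (12.6% of all probe sets), EGFL7 (-0.61) and ROBO4 (-0.65). Fibroblast genes, 7 of 7 measured, were highest in Japanese Black 3 (0.34) and Holstein 1 (0.30), and Holstein 2 was at -0.09. Japanese Black 3 and Holstein 2 were the highest pair for 2 of the 7, PDGFRA and DCN. By sign 5 of the 7 fibroblast genes were lower in Japanese Black and 2 higher, with a median of -0.29. THY1, 1 of the 2 higher, differed by 0.66 toward Japanese Black (unadjusted p 0.00332 and adjusted p 0.287 in limma). The summed fibroblast signal ranged from 6753 to 11760 in Japanese Black and from 8786 to 10080 in Holstein. Leukocyte genes, 5 of 5 measured, were highest in Holstein 3 (0.28) and lay at 0.21 in Japanese Black 3 and 0.12 in Holstein 2, with that pair on top for 0 of 5 and summed signals of 352 to 524 in Japanese Black and 391 to 592 in Holstein. No gene of these lists was at 0 in any animal, and their part in the values of the 8 genes was not tested.

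**Figure D4:**
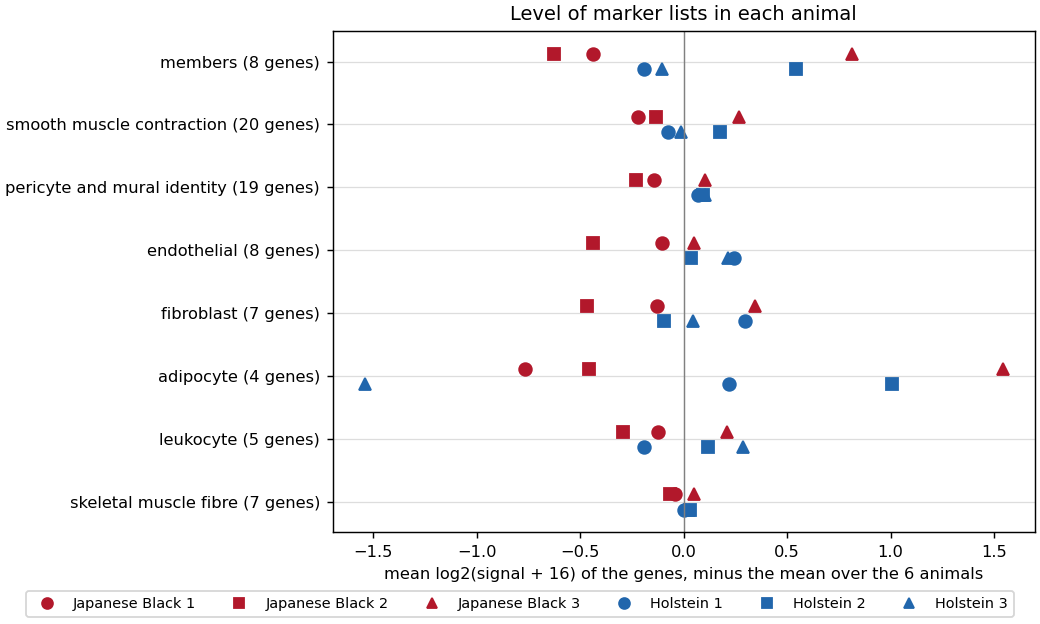
Mean log2(signal + 16) of the gene lists shown in each animal, minus the mean over the 6 animals (horizontal axis), red for Japanese Black and blue for Holstein. The list tied to serum response factor is not drawn. Its level is -0.02 in Japanese Black 3 and -0.09 in Holstein 2, and it is highest in Holstein 3 (0.24). Japanese Black 3 and Holstein 2 are highest for the 8 smooth muscle and pericyte genes (members; 0.82 and 0.54) and for adipocyte genes (1.54 and 1.01). They are also the highest pair for smooth muscle contraction genes (0.27 and 0.17). For skeletal fibre genes they are highest by little (0.050 and 0.033), with Holstein 3 at 0.027. Endothelial genes are highest in Holstein 1 and 3, and skeletal fibre genes, most of them read at very high signals, lie close together.

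The named genes with the most similar pattern were taken from 395 whose level varied over the animals at least as much as the mean of the 8 genes (SD 0.56). Likeness was Pearson's r over 6 arrays with that mean, and it describes the choice and supports nothing, since 5.32% of the 395 reached an r over 0.9. They were SFRP5, a secreted Wnt antagonist (r = 0.979), KCNMB1, the smooth muscle subunit of a calcium-activated potassium channel (0.977), CD200, a membrane glycoprotein (0.968), GEM, a small GTPase (0.964), SORBS2, a cytoskeletal adaptor (0.964), and FLNA, the actin crosslinker filamin A (0.955). SFRP5 read 80.5, 96.7 and 330 in Japanese Black and 129, 266 and 133 in Holstein. KCNMB1 read 46.3, 49.6 and 146 in Japanese Black and 57.03, 118 and 58.5 in Holstein. Both had the same pair of animals on top as MYH11. Without Japanese Black 3 and Holstein 2 the r over the remaining 4 arrays fell to between 0.615 and 0.916 for these 6 genes.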

How the data were processed

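Total RNA of 6 muscle samples, 3 per breed, was labelled with biotin and hybridised to Affymetrix arrays, per the labels' protocols. The deposited table of 24128 probe sets holds the authors' summarised intensity values on a linear scale. Their software, per the submitters' processing notes, was GCOS 1.1.1 with Affymetrix Expression Console 1.1; how probes were summarised or scaled is not given in the sources used here. Detection calls were not used here.

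Control probe sets (112) were left out, 16 was added before log2, and the dimmest 25% were left out, which left 18012; all 9 probe sets of the 8 genes remained. The test was limma 3.58.1 (R 4.3.3; lmFit, then eBayes with its trend option), two-sided, adjusted by Benjamini-Hochberg over all probe sets. The series design names a paired test but the labels name no pairs, so the fit was unpaired; replicate numbers only name animals. The arrays are separate animals by their titles. A gene was represented by its brightest probe set in medians and lists.

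Symbols come from the platform annotation (13292 probe sets with 1 gene, 86 with several, 10638 with none). Coordinates are left out, since the table names no genome build. The members and gene lists were chosen with earlier results of these data known. Every member was named, with the up to 4 smallest p of each list of the wider set, and the 6 genes of highest r. The fit was tested on simulated data. Alternatives were offsets of 1 and 64, no filter, median centring, quantile normalization, array weights, other variance models, all probe sets of a gene, and leaving out each animal. Plots used Python 3.11.15 and matplotlib 3.10.9.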

Additional observations from a re-analysis of the deposited data

How the results depend on the processing

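No alternative gave a call among the 9 probe sets or the wider set of genes: the counts were 0 throughout, with lowest and highest values of 0 and 0 when 1 animal was left out. The median of the 8 genes lay between -0.52 and 0.16 when 1 animal was left out, and between -0.33 (array weights) and -0.08 (offset of 64) otherwise. Signs of differences near 0 turned. After quantile normalization ACTA2 was at -0.057, MYH11 at -0.041 and TAGLN at -0.049, and with array weights they were at -0.26, -0.43 and -0.30. The brighter MYLK probe set was at 0.000667 with an offset of 64 and at 0.014 after median centring. When 1 animal was left out the difference ranged from -0.47 to 0.29 for this MYLK probe set, from -0.65 to 0.12 for the dimmer one, from -0.65 to 0.67 for MYH11, from -0.53 to 0.27 for ACTA2, from -0.52 to 0.30 for TAGLN, from -0.90 to -0.03 for CNN1, from -0.42 to -0.04 for SMTN and from -0.98 to 0.065 for RGS5. All 9 probe sets were lower in Japanese Black after quantile normalization and with array weights, where 51.2% and 52% of all probe sets were. The cause was not tested. No paired analysis was possible because no label ties an animal of one breed to one of the other. With 3 arrays per breed, differences of the size of the intervals given cannot be told from 0.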

Other observations

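ACTC1, the cardiac actin gene that skeletal muscle also expresses, was chosen after its values were seen. Its signal was 850, 9941 and 835 in Japanese Black and 10339.5, 713 and 22468 in Holstein. Within each breed the animals thus differed by more than for any of the 8 smooth muscle and pericyte genes, 31.5-fold over the 6 animals, and the high animals were Japanese Black 2, Holstein 1 and Holstein 3. Its log2 difference between the breeds was -1.51 with an adjusted p of 0.626 in limma. Japanese Black 3 and Holstein 2, highest for ACTA2 and MYH11, were among the 3 animals with low ACTC1. The remaining one, Japanese Black 1, had the lowest ACTA2 signal of all animals (2579) and read 546 for MYH11.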
